A study of Mus musculus with 12 samples.

Results

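Gene expression in the mouse hippocampus was compared between 6 h and 1 h after an intraperitoneal injection, with the stigmasterol and the vehicle animals pooled. All 12 libraries of the study entered the comparison, 6 at 6 h and 6 at 1 h, each time holding 3 libraries from stigmasterol animals and 3 from vehicle animals. All animals were wild-type C57BL/6, and the libraries were made from polyadenylated RNA of dissected hippocampi. The labels contradict each other on the compound: the treatment protocol speaks of beta-sitosterol (100 mg/kg), and other fields speak of stigmasterol, the name used here. Sex, age, the composition of the vehicle, the number of animals behind a library, the strandedness of the libraries and the clock times of injection and dissection are not given in the sources used here. Hours after injection and time of day therefore cannot be told apart, and there was no group without an injection. Because the labels only number the replicates, the p-values measure the spread between these samples.

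Several kinds of transcript are known to move over hours in brain tissue. The circadian clock is a feedback loop in which the CLOCK and ARNTL proteins switch on the Per and Cry genes through E-boxes, PER and CRY proteins repress CLOCK and ARNTL, and a second loop of ROR and REV-ERB receptors acts on RORE sites; DBP, which activates D-box sites, and NFIL3, which represses them, carry the rhythm to other genes. Immediate early genes such as Fos and Egr1 are transcribed within minutes of neuronal firing, handling or stress and decline within hours. Cytokine signals reach the brain mainly through endothelial cells and glia, where STAT3 and NF-kappa-B switch on genes such as Socs3, Lcn2 and Icam1.

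Total counts lay between 27613253 and 34805747 per library at 6 h and between 28676812 and 42043875 at 1 h. Expression is given in CPM, each library's counts scaled to a common total by TMM. Markers of the 3 principal cell fields of the hippocampus were present in every library: summed levels were 663 to 765 CPM at 6 h and 603 to 896 CPM at 1 h for dentate granule cells, 737 to 959 CPM at 6 h and 741 to 894 CPM at 1 h for CA1, and 969 to 1143 CPM at 6 h and 1085 to 1419 CPM at 1 h for CA2 and CA3. Several libraries stood apart. Replicates 4 and 9 of the vehicle group at 1 h held little choroid plexus, the tissue that secretes cerebrospinal fluid, whose marker Ttr lay at 356 to 4099 CPM in the 6 libraries at 6 h, against 31.0 and 40.3 CPM in these. Striatal markers summed to 453 to 572 CPM in the libraries at 6 h, against 915 CPM in stigmasterol 1 h replicate 8. The libraries also differed in how counts leaned with GC content, most of all stigmasterol 6 h replicate 22, whose counts were 0.290 log2 units higher per 10 points of GC content than the mean library. The slope was −0.154 in stigmasterol 6 h replicate 23 and 0.178 in stigmasterol 1 h replicate 8. Where genes overlap, reads of the partners may be mixed, since the strand is not given; of the genes named this concerns Nr1d1 with Thra, Dbp with Sphk2, Per3 with Camta1, Tgm2 with Rprd1b, Gli1 with Arhgap9, Srebf1 with Rai1, Manf with Dcaf1 and Rbm15b, Sstr2 with Slc39a11, Gabra4 with Gabrb1 and Hspd1 with Hspe1.

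Of 18382 genes tested, 1682 differed between 6 h and 1 h at an adjusted p below 0.05 (edgeR quasi-likelihood test with an additive term for the injection, Benjamini-Hochberg adjustment over all tested genes), that is 9.15%. At 6 h 822 genes were higher (4.47%) and 860 were lower (4.68%). Most differences were small: the median log2 fold change was 0.37 over the genes called higher and −0.26 over those called lower, and 47 genes were higher and 5 were lower by at least 2-fold. All 6 libraries at 6 h lay above all 6 at 1 h for 373 of the tested genes (2.03%), and below them for 444 genes (2.42%), so that the times did not overlap for 4.44%. Of the called genes, 329 of the 822 higher and 370 of the 860 lower were free of overlap. Choice by a small p favours such genes.

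The number of called genes depended on single libraries. It was 391 without vehicle 6 h replicate 14, 530, 599 and 658 without vehicle 1 h replicates 5, 9 and 4, 727 without stigmasterol 6 h replicate 22, 833 and 1001 without vehicle 6 h replicates 12 and 21, 855 without stigmasterol 1 h replicate 1, and 3243 without stigmasterol 6 h replicate 23. With vehicle 1 h replicates 4 and 9 both left out, which leaves that group 1 library whose spread is assumed to be that of the other groups, 80 genes were called, 61 higher and 19 lower, and all 80 were among the 1682. With upper-quartile scaling in place of TMM, 1639 genes were called, but 1212 of them were higher and 427 lower. Of the 15 higher genes with the smallest p, all 15 passed in each of 28 alternatives, and of the 15 lower ones 12 did so. These alternatives include the main fit read at an adjusted p of 0.1, which every called gene passes. The genes were chosen by their p in the same libraries, so their passing is not independent support. The 3 exceptions, Pno1, Anp32a and Zmat2, failed without vehicle 1 h replicates 4 and 9 together, with a largest adjusted p of 0.0577.

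**Figure D1:**
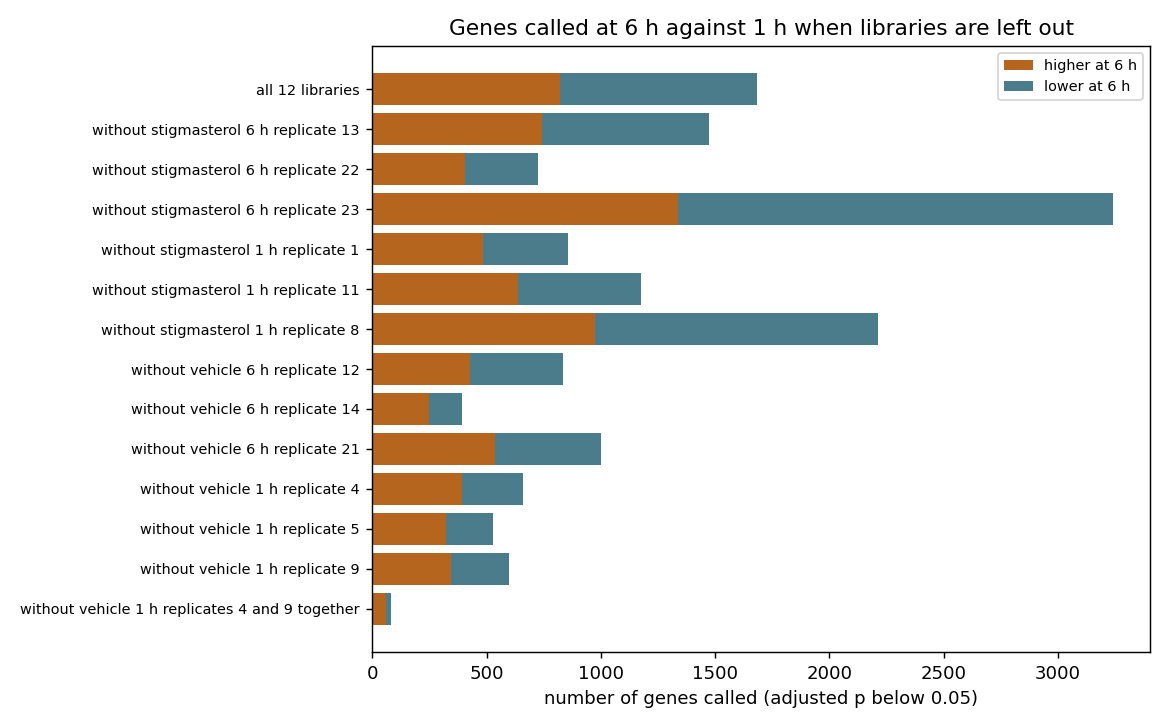
Number of genes called at 6 h against 1 h (horizontal axis, adjusted p below 0.05) with all 12 libraries and with libraries left out, split into genes higher (brown) and lower (blue) at 6 h. The count was 1682 with all libraries, between 391 and 3243 with 1 library left out, and 80 without vehicle 1 h replicates 4 and 9 together.

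Per3, Cry1 and Cry2, which encode repressors of the clock's negative limb, were higher at 6 h. Among 13 core clock genes these 3 were called higher and none lower, against 4.47% and 4.68% of all tested genes; the median log2 fold change was 0.08 over the 13 genes and 0.003 over all genes. Per3, a period gene (chr4:151003652-151044665 in GRCm38, minus strand), had a lowest, median and highest value of 84.0, 109 and 117 CPM at 6 h, against 63.2, 70.0 and 79.3 CPM at 1 h. Every library at 6 h therefore exceeded every library at 1 h, and the log2 fold change was 0.58 ± 0.08 (SE, adjusted p = 0.00205). Cry1, a repressor of CLOCK and ARNTL, lay at 11.8, 12.8 and 14.8 CPM at 6 h and at 8.72, 9.503 and 11.998 CPM at 1 h. These ranges overlapped slightly, and the log2 fold change was 0.40 ± 0.08 (adjusted p = 0.0124). Cry2, its paralog, rose by 0.23 ± 0.06 (adjusted p = 0.0302) with no overlap of the groups. Its call was lost in 8 of 12 fits that each left out 1 library, with the largest adjusted p, 0.0830, without vehicle 6 h replicate 14, and also after removal of the GC and length trends of each library (log2 fold change 0.15, adjusted p = 0.0556).

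The members of the activating limb did not pass the test. Arntl, the partner of CLOCK, differed by −0.20 ± 0.07 on the log2 scale (adjusted p = 0.102), and Clock by −0.17 ± 0.07 (adjusted p = 0.124). Per1 and Per2, the other 2 period genes, had log2 fold changes of 0.17 ± 0.10 and 0.15 ± 0.09, with adjusted p of 0.297 and 0.318. Nr1d1, which encodes REV-ERB alpha, was at 98.95, 110.1 and 125 CPM at 6 h and 108, 115.5 and 143 CPM at 1 h, so that the groups overlapped.

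Among 8 clock output factors, 2 were called higher and 1 lower, against 4.47% and 4.68% of all tested genes. Nfil3, the repressor of D-box sites, fell by 0.52 ± 0.09 on the log2 scale (adjusted p = 0.00917), with 6.24, 7.72 and 8.61 CPM at 6 h, against 8.78, 10.95 and 12.1 CPM at 1 h. No library at 6 h reached the lowest one at 1 h. Dbp, the activator of the same sites, rose by 0.50 ± 0.14 (adjusted p = 0.0357), with 37.1, 49.5 and 62.5 CPM at 6 h and 28.9, 32.3 and 51.2 CPM at 1 h. The groups overlapped, and the call was lost in 10 of 12 fits that each left out 1 library, with an adjusted p of 0.0889 without vehicle 1 h replicate 5. Usp2, a ubiquitin protease with a rhythm in many tissues, rose by 0.36 ± 0.07 (adjusted p = 0.0146). Ciart, a CLOCK repressor, had a log2 fold change of 0.40 ± 0.13 and Bhlhe40 one of −0.28 ± 0.09, neither past the threshold (adjusted p = 0.0721 and 0.0640). When vehicle 1 h replicates 4 and 9 were both left out, Per3 was the only one of these 21 genes called, and the calls of Cry1, Nfil3 and Usp2 were lost, with adjusted p of 0.113, 0.0577 and 0.122. Its effect on the genes described next is given once per group of genes.

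Start-site regions of 3 called genes are shown, 2 higher (Per3 and Cry1) and 1 lower (Nfil3), which hold letters of the clock's own elements. The sequences are RefSeq promoters of GRCm38.p6, 5′ to 3′ on the strand of the gene; capitals mark the motif, on either strand.
Per3 (chr4:151044776-151044895, minus strand, D-box TTATGNAA): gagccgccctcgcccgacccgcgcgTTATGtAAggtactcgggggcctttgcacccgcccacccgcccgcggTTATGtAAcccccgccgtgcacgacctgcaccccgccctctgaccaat
Cry1 (chr10:85185055-85185174, minus strand, E-box CACGTG): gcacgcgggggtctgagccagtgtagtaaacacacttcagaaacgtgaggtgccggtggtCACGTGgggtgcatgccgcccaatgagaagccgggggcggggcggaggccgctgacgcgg
Nfil3 (chr13:52981040-52981119, minus strand, RORE core TAGGTCA, here on the other strand): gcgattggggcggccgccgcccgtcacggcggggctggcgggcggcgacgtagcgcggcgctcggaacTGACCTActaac

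Per3 held 2 D-boxes, an element found in the 250 bases before the start of 2.41% of the 12831 tested genes with such a window. The E-box was found in 9.28% of these genes and the RORE core in 1.85%. Among the 11 core clock genes with a window, 2 held an E-box (Cry1 and Per1) and 2 held a D-box (Per1 and Per3); Per1 held both and was not called. Of the 7 output factors with a window 3 held an E-box, Bhlhe41, Ciart and Tef, none of them called, and 1 held the RORE core, Nfil3. These matches describe the letters only.

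**Figure D2:**
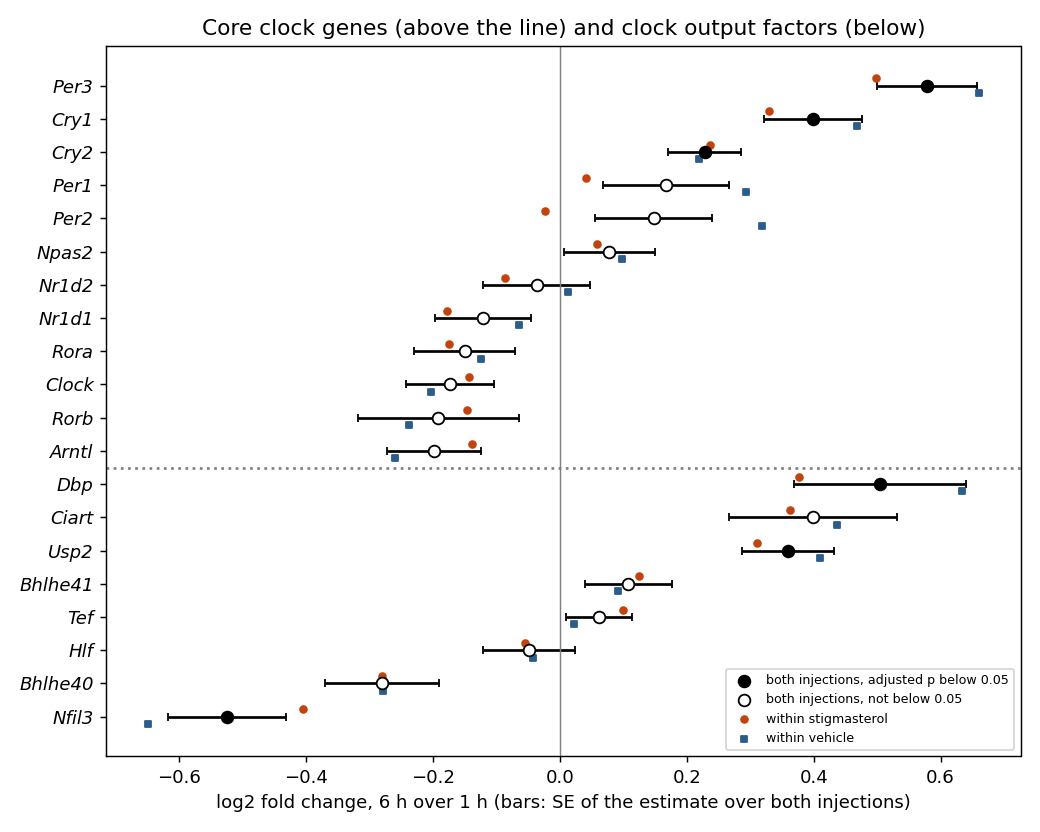
Log2 fold change at 6 h over 1 h (horizontal axis) of 12 of the 13 core clock genes and the 8 clock output factors over both injections, with its SE (large circles, filled where the adjusted p was below 0.05), and within stigmasterol (small circles) and vehicle animals (squares). Per3, Cry1, Cry2, Dbp and Usp2 lay above 0 and Nfil3 below 0 with both injections.

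Some activity-regulated transcripts, Homer1, Fosb and Egr1 among them, were lower at 6 h. Of 49 immediate early and activity-regulated genes, 12 were called lower and 1, Ier3, higher, while 36 did not pass, and the median log2 fold change was −0.12. Among all tested genes 4.68% were called lower and 4.47% higher. Homer1 (chr13:93299635-93405129, plus strand) encodes a scaffold of the postsynaptic density, and its short form is an immediate early transcript; counts per gene do not separate the forms. It lay at 54.6, 65.9 and 73.3 CPM at 6 h, against 89.3, 101 and 109 CPM at 1 h. All libraries at 6 h were below all at 1 h, with a log2 fold change of −0.63 ± 0.07 (adjusted p = 0.00104). Fosb, a Fos family transcription factor, lay at 4.53, 5.47 and 7.14 CPM at 6 h, against 8.68, 9.545 and 13.5 CPM at 1 h, again without overlap. It fell by 0.87 ± 0.13 on the log2 scale (adjusted p = 0.00388).

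Of the Egr family of zinc finger factors, Egr1, Egr2 and Egr3 fell, and Egr4 did not pass (log2 fold change −0.31 ± 0.18). Egr1 lay at 57.0, 58.7 and 63.7 CPM at 6 h, against 72.1, 86.5 and 194 CPM at 1 h, and fell by 0.82 ± 0.18 (adjusted p = 0.0183). The libraries at 6 h were tight and those at 1 h spread out, the highest being stigmasterol 1 h replicate 8, without which Egr1 fell by 0.61 (adjusted p = 0.00838). Egr3 fell by 0.37 ± 0.08 (adjusted p = 0.0174), and Egr2, which lay at 0.386, 0.716 and 1.005 CPM at 6 h and 0.701, 1.85 and 3.70 CPM at 1 h, fell by 1.51 ± 0.35 (adjusted p = 0.0227). Fos itself lay at 2.97, 4.335 and 7.00 CPM at 6 h and 5.82, 9.39 and 16.9 CPM at 1 h. Its groups overlapped, and it fell by 1.12 ± 0.27 (adjusted p = 0.0249). The call of Fos was lost in 5 of 12 fits that each left out 1 library and that of Egr2 in 1, with adjusted p of 0.0631 and 0.0593 without vehicle 1 h replicate 4.

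Other members did not pass the test. Arc, which encodes a synaptic capsid-like protein, lay at 82.5, 96.4 and 124 CPM at 6 h and spread over 67.7, 126 and 304 CPM at 1 h, and its log2 fold change of −0.54 ± 0.27 did not pass (adjusted p = 0.205). Npas4, a neuron-specific activity-induced factor, had a positive log2 fold change of 0.46 ± 0.21 (adjusted p = 0.170), and Bdnf, a neurotrophin, one of −0.07 ± 0.07. Of 14 feedback inhibitors of growth factor signalling 2 were called lower, against 4.68% of all tested genes. Errfi1, an inhibitor of the EGF receptor, fell by 0.50 ± 0.07 (adjusted p = 0.00231) and Dusp5, a phosphatase of ERK, by 0.51 ± 0.09 (adjusted p = 0.00917), both without overlap of the groups. Leaving out vehicle 1 h replicates 4 and 9 together left 2 of the immediate early genes and 1 of the feedback inhibitors called lower; without vehicle 1 h replicate 4 alone the immediate early list had 5 called lower.

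Chaperone genes of the cytosol and of the endoplasmic reticulum were among those called lower at 6 h. Of 21 heat shock genes 9 were called lower and none higher, and 12 did not pass, with a median log2 fold change of −0.23. Of 24 genes of ER folding and ATF4 signalling 9 were called lower and none higher, and 15 did not pass, with a median of −0.20. The shares over all tested genes were 4.68% lower and 4.47% higher. Dnajb1, a co-chaperone of HSP70, lay at 31.1, 32.3 and 36.1 CPM at 6 h and 38.8, 42.5 and 52.7 CPM at 1 h, and Hsph1, an HSP110 nucleotide exchange factor, at 202, 222 and 241 CPM at 6 h and 259, 280 and 309 CPM at 1 h. Neither gene overlapped between the times, and they fell by 0.40 ± 0.06 and 0.35 ± 0.06 (adjusted p = 0.00388 and 0.00542). Hspa8, the constitutive HSP70, and Ahsa1, an activator of the HSP90 ATPase, fell by 0.28 ± 0.06 and 0.23 ± 0.05 (adjusted p = 0.0146 and 0.0154). Hsp90aa1, Stip1 and Hspa4 were also called lower.

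The mitochondrial chaperonin pair, Hspd1 and Hspe1, which are transcribed in opposite directions from a shared start region, fell by 0.25 ± 0.06 and 0.36 ± 0.08 (adjusted p = 0.0219 and 0.0195). Their annotated first bases overlap, and the counting strand is not given in the sources used here. Their calls were lost in 4 and 1 of 12 fits that each left out 1 library, with adjusted p of 0.0618 and 0.0551 without vehicle 6 h replicate 14. The stress-inducible pair Hspa1a and Hspa1b, which are near-identical copies and therefore uncertain, did not pass, nor did Bag3 (log2 fold change −0.03 ± 0.10). Without vehicle 6 h replicate 14, 4 heat shock genes were called, and without vehicle 1 h replicates 4 and 9 together, 2.

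In the endoplasmic reticulum, Hspa5, the HSP70 known as BiP, lay at 159, 187 and 210.5 CPM at 6 h and at 186, 246 and 343 CPM at 1 h. The ranges overlapped, and the fall was 0.43 ± 0.10 on the log2 scale (adjusted p = 0.0219). Pdia3 and Pdia6, protein disulfide isomerases, fell by 0.30 ± 0.07 and 0.27 ± 0.06 (adjusted p = 0.0188 and 0.0181), and Pdia3 showed no overlap. Hsp90b1, the ER form of HSP90, fell by 0.24 ± 0.06, Xbp1, a transcription factor of the unfolded protein response, by 0.27 ± 0.07, Creld2 by 0.36 ± 0.10 and Manf, a secreted ER stress protein, by 0.33 ± 0.09; Dnajb11 and Atf4 completed the 9. After removal of the GC and length trends Hsp90b1 had a log2 fold change of −0.14 and an adjusted p of 0.189. Of 12 fits that each left out 1 library, the calls of Hsp90b1 and Xbp1 were lost in 7 each. Those of Hspa5, Pdia6 and Pdia3 were lost in 3, 2 and 1. Upper-quartile scaling also lost the calls of Hsp90b1 and Xbp1. The calls of Creld2 and Manf were lost in 9 of 12 fits that each left out 1 library, with adjusted p of 0.0530 and 0.0563 without stigmasterol 1 h replicate 8 and up to 0.115 (Creld2, without vehicle 1 h replicate 5) and 0.110 (Manf, without vehicle 6 h replicate 14). The calls depended on which libraries were fitted. No member was called without vehicle 6 h replicate 14, a fit in which the calls over all tested genes fell from 1682 to 391. The list's median log2 fold change was −0.21 without vehicle 1 h replicates 4 and 9 together, and it stayed between −0.23 and −0.15 in all alternatives. With upper-quartile scaling 3 members were called.

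Sequences of 5 of these genes are shown because the elements in them are shared. The ER stress element, CCAAT and CCACG with 9 bases between them, was found before 0.164% of all tested genes with a window, 6 of the 22 listed genes with one, and 4 of the 8 called. The heat shock element, GAA, TTC and GAA with 2 bases between each, was found before 0.436% of genes and before 2 of the 17 listed heat shock genes with a window, Hspd1 and Hspe1, whose windows share it. Build, source and direction are as above, and capitals mark the element on either strand.
Hspa5 (chr2:34771970-34772089, plus strand): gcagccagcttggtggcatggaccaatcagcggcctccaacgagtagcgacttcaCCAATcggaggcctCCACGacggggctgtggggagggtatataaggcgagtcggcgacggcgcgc
Hsp90b1 (chr10:86705525-86705674, minus strand): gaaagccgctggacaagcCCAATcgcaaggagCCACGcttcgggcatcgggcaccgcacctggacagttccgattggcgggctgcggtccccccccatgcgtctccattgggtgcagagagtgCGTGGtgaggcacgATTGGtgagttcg
Creld2 (chr15:88819496-88819595, plus strand): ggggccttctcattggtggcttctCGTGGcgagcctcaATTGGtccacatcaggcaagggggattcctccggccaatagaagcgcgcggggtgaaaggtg
Pdia6 (chr12:17266459-17266558, plus strand): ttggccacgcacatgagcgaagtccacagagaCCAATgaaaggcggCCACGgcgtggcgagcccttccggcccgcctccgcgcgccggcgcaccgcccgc
Hspd1 (chr1:55088003-55088122, minus strand): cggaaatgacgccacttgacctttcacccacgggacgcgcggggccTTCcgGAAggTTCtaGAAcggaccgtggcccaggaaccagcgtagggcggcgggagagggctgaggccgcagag

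Hsp90b1 held the ER stress element 2 times, once on each strand, and Hspd1 held 2 overlapping matches of the heat shock element. Calr and Dnajc3, which held the ER stress element as well, did not pass the test. Cirbp, an RNA-binding protein that rises on cooling and whose transcript follows body temperature in rodents, moved the other way: it lay at 55.1, 60.9 and 73.1 CPM at 6 h, against 44.7, 49.7 and 51.0 CPM at 1 h, without overlap, and rose by 0.32 ± 0.07 (adjusted p = 0.0145). The related Rbm3 differed by 0.13 ± 0.07 on the log2 scale (adjusted p = 0.245). The adjusted p of Cirbp was 0.0927 without vehicle 1 h replicates 4 and 9 together.

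Several inflammatory and acute-phase genes of low level, Bcl3, Lcn2, Selp, Il1b and Ch25h, were higher at 6 h by large folds. Of 33 listed genes 27 were tested, and 9 of these were called higher and none lower, while 18 did not pass. Their median log2 fold change was 0.15. The shares over all tested genes were 4.47% higher and 4.68% lower. Saa3, Il6, Tnf, Ccl2, Cxcl1 and Sele were not tested. A gene near 0 at 1 h entered the test only where it was high enough at 6 h. This entry rule leans the list towards calls on the higher side, and the share over all genes does not remove that. With a stricter filter on level 19 members were tested, and 6 were called higher and 0 lower. Over all 13678 genes tested with that filter, 940 were called higher and 695 lower. Bcl3 (chr7:19808462-19822770, minus strand), a nuclear member of the I-kappa-B family, lay at 1.31, 1.58 and 1.81 CPM at 6 h and at 0.125, 0.259 and 0.338 CPM at 1 h, which are 38 to 61 and 4 to 13 reads per library. The lowest library at 6 h was far above the highest at 1 h, and Bcl3 rose by 2.66 ± 0.19 on the log2 scale (adjusted p = 2.8e-05). Bcl3 was the 1 gene called within stigmasterol animals (log2 fold change 2.51, adjusted p = 0.00575), and it was also called within vehicle animals (2.86, adjusted p = 0.00458).

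Ch25h, the enzyme that makes 25-hydroxycholesterol, lay at 1.00, 1.40 and 1.81 CPM at 6 h and 0.156, 0.332 and 0.650 CPM at 1 h. It rose by 1.93 ± 0.26 without overlap (adjusted p = 0.00205). Socs3, the feedback inhibitor of STAT3 signalling, lay at 2.42, 3.43 and 4.86 CPM at 6 h and 0.986, 1.501 and 2.30 CPM at 1 h, and rose by 1.16 ± 0.20 (adjusted p = 0.00825). Icam1, a leukocyte adhesion molecule of endothelium, rose by 0.59 ± 0.11 (adjusted p = 0.0103), also without overlap. Jak3, the kinase of the common gamma chain cytokine receptors, had the smallest p of all genes higher at 6 h that averaged at least 1 CPM, at 14.8, 15.9 and 18.5 CPM at 6 h and 8.77, 9.75 and 11.1 CPM at 1 h (log2 fold change 0.73 ± 0.07, adjusted p = 0.00102).

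Lcn2, an acute-phase protein that binds iron carriers, lay at 1.52, 2.12 and 24.0 CPM at 6 h and 0.211, 0.431 and 0.909 CPM at 1 h. The top value came from stigmasterol 6 h replicate 23 alone, with the next at 3.27 CPM. The log2 fold change was 3.35 ± 0.67 (adjusted p = 0.0141) with that library and 1.98 (adjusted p = 0.00300) without it. Selp, the P-selectin of activated endothelium and platelets, rested on few reads, 7 to 29 per library at 6 h and 0 to 4 at 1 h, and rose by 3.13 ± 0.64 (adjusted p = 0.0146), or between 2.72 and 3.72 with 1 library left out, the extremes being without vehicle 6 h replicate 21 and without stigmasterol 1 h replicate 1. Il1b, a cytokine, had 2 to 22 reads at 6 h and 1 to 5 at 1 h (log2 fold change 2.165 ± 0.47, adjusted p = 0.0182), and stigmasterol 6 h replicate 22 lay inside the range of 1 h. Osmr, the oncostatin M receptor, and Il4ra, the interleukin 4 receptor, rose by 0.54 ± 0.12 and 0.70 ± 0.18 (adjusted p = 0.0226 and 0.0302). The Osmr call was lost without vehicle 1 h replicate 5 (adjusted p = 0.0572) or 9, and the Il4ra call in 6 of 12 such fits (adjusted p = 0.0709 without vehicle 1 h replicate 5) and after removal of the GC and length trends (adjusted p = 0.0600).

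Outside the list, 2 genes named after their values had been seen were higher. Lrg1, a secreted acute-phase glycoprotein, lay at 2.25, 2.59 and 3.98 CPM at 6 h and 0.436, 1.078 and 1.69 CPM at 1 h (log2 fold change 1.43 ± 0.22, adjusted p = 0.00388). Serpina3f is one of a family of near-identical serine protease inhibitors and therefore uncertain. It rested on few reads, 8 to 34 per library at 6 h and 2 to 8 at 1 h, and rose by 2.68 ± 0.44 (adjusted p = 0.00622). Other members of the list did not pass: Stat3 had a log2 fold change of 0.08 ± 0.05, Nfkbia of −0.08 ± 0.11, Vcam1 of 0.04 ± 0.08 and Serpina3n, a marker of reactive astrocytes, of 0.07 ± 0.09. Of 29 interferon-stimulated genes 1 was called higher, against 4.47% of all tested genes. It was Ifitm1 (log2 fold change 0.82 ± 0.19, adjusted p = 0.0233). None of 13 microglia markers was called, and their sum lay between 648 and 729 CPM at 6 h and between 551 and 750 CPM at 1 h.

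The 9 inflammatory calls were 8 to 11 when any 1 library was left out, and 9 with choroid plexus content as a covariate. Leaving out vehicle 1 h replicates 4 and 9 together left 2, Bcl3 and Ch25h; the Socs3 estimate then had an adjusted p of 0.0726. Meningeal markers summed to 162 to 257 CPM at 6 h and 133 to 320 CPM at 1 h, with 0 of 13 called, and choroid plexus markers to 469 to 4707 CPM at 6 h and 73.6 to 5136 CPM at 1 h, with 0 of 15 called.

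**Figure D3:**
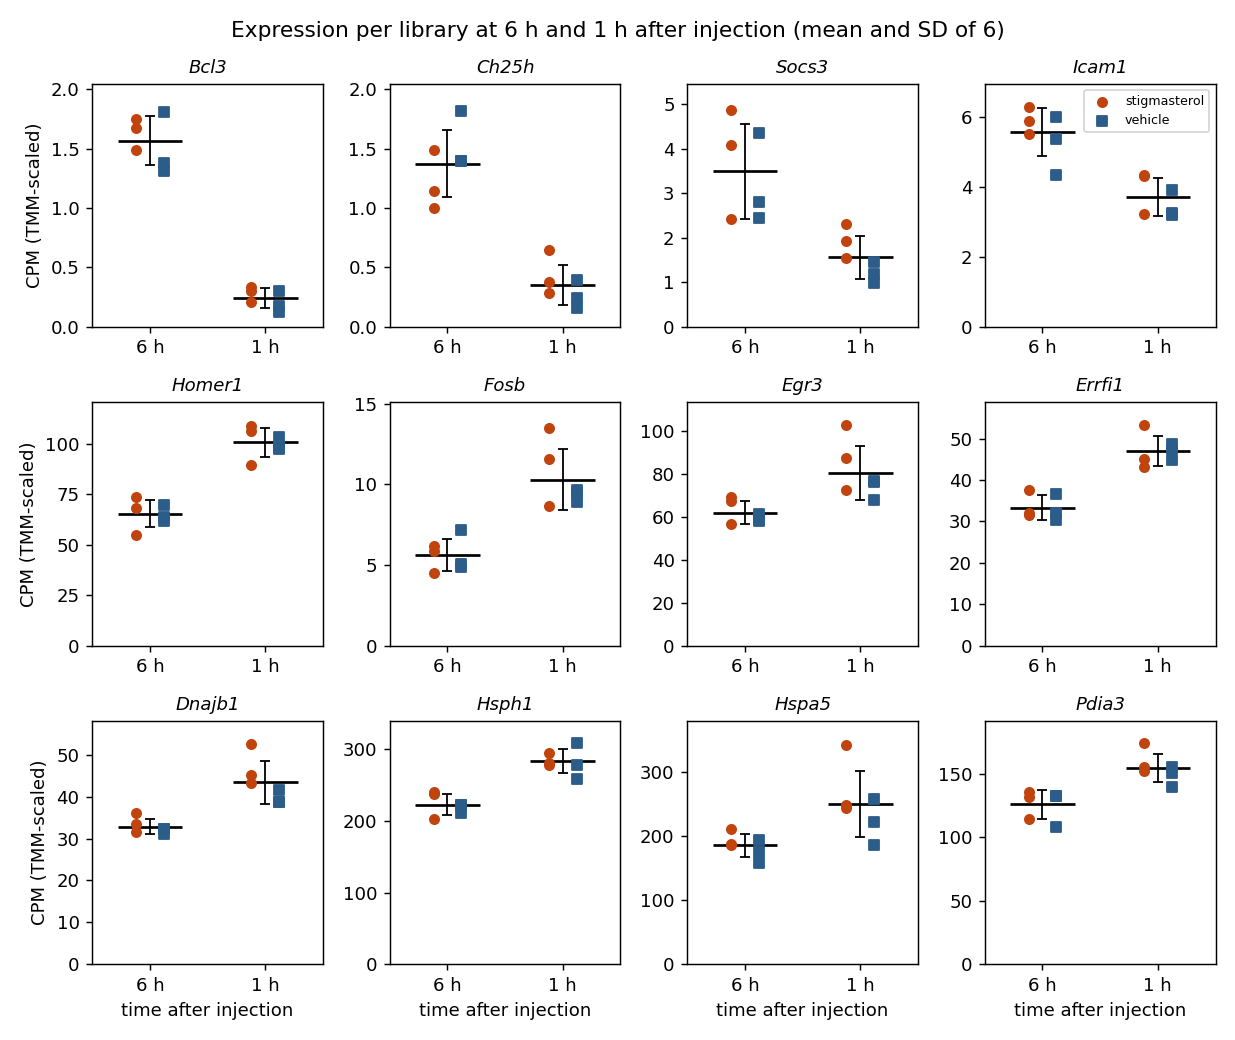
Expression in CPM of 12 genes (vertical axes, from 0) in each library at 6 h (left) and 1 h (right), with circles for stigmasterol and squares for vehicle animals; horizontal lines and bars give the mean and SD of 6 libraries. Bcl3, Ch25h, Socs3 and Icam1 were higher at 6 h with no overlap; Homer1, Fosb, Errfi1, Dnajb1, Hsph1 and Pdia3 were lower with no overlap, and Egr3 and Hspa5 were lower with overlap.

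Glial and vascular genes were among those higher at 6 h with the smallest p. Among all tested genes 4.47% were called higher. Sox9, a transcription factor of astrocytes, lay at 33.1, 40.6 and 44.4 CPM at 6 h, against 24.5, 25.7 and 32.2 CPM at 1 h, and Fgfr3, a growth factor receptor of astrocytes, at 206, 242 and 252 CPM at 6 h, against 148, 166 and 174 CPM at 1 h. Neither overlapped, and they rose by 0.56 ± 0.06 and 0.52 ± 0.06 (both adjusted p = 0.00104). Of 13 astrocyte markers 3 were called higher, the third being Aldh1l1 (0.32 ± 0.07, adjusted p = 0.0226, or 0.0596 without vehicle 1 h replicate 5), and none lower; Gfap, Aqp4, Gja1 and Slc1a2 did not pass, with log2 fold changes of 0.19, −0.21, −0.14 and 0.02. The summed markers lay between 7860 and 8956 CPM at 6 h and between 7186 and 9351 CPM at 1 h, so the groups overlapped in marker content. In such bulk tissue, fewer cells of a type and less RNA per cell cannot be told apart.

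Outside the marker list, Etnppl, an astrocyte enzyme of phosphoethanolamine breakdown, rose by 1.12 ± 0.20 (adjusted p = 0.00926) and Fabp7, the fatty acid binding protein of radial glia and astrocytes, fell by 1.09 ± 0.21 (adjusted p = 0.0118). Etnppl lay at 20.2, 31.1 and 50.3 CPM at 6 h and 10.3, 15.5 and 17.4 CPM at 1 h, without overlap. Fabp7 lay at 15.3, 19.8 and 32.7 CPM at 6 h and 30.8, 44.5 and 66.6 CPM at 1 h, and its ranges overlapped slightly. Both calls were lost without vehicle 1 h replicates 4 and 9 together (adjusted p = 0.0707 for Etnppl and 0.0925 for Fabp7). Gli1, the transcription factor that reports Hedgehog signalling, rose by 1.19 ± 0.15 (adjusted p = 0.00175), with 5.02, 6.88 and 8.70 CPM at 6 h and 2.15, 2.94 and 4.03 CPM at 1 h.

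Pdgfrb, the PDGF receptor of pericytes, lay at 43.9, 46.5 and 50.9 CPM at 6 h and 28.1, 32.4 and 36.6 CPM at 1 h and rose by 0.53 ± 0.06 (adjusted p = 0.00168). Cspg4, the NG2 proteoglycan of pericytes and oligodendrocyte precursors, rose by 0.46 ± 0.07 (adjusted p = 0.00286), and Pdgfra, the PDGF receptor of the precursors, by 0.26 ± 0.05 (adjusted p = 0.0139). All 3 were free of overlap, and they made up both calls among 11 pericyte and smooth muscle markers and both among 8 precursor markers. The other 9 pericyte and smooth muscle markers did not pass. Over the 11 the median log2 fold change was 0.0009, with 6 above 0 and 5 below. Of the 8 precursor markers 6 did not pass, and their list's median was 0.17. Podxl, a sialomucin of vessel walls, lay at 62.0, 71.4 and 85.6 CPM at 6 h and 40.8, 44.9 and 47.1 CPM at 1 h (log2 fold change 0.72 ± 0.08, adjusted p = 0.00104). One of 12 endothelial markers was called, Ly6c1, and none of the 15 oligodendrocyte markers.

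The rest of the 15 higher genes with the smallest p served matrix, signalling and metabolism: Tnxb (tenascin X of the extracellular matrix), Tgm2 (a protein cross-linking enzyme), Phka1 (a subunit of phosphorylase kinase), Idh2 (mitochondrial isocitrate dehydrogenase), Kcna4 (the potassium channel Kv1.4), Med12 (a subunit of the Mediator kinase module), Esyt1 (a tether between ER and plasma membrane), Sbno2 and Zfp46. Their log2 fold changes ran from 0.38 ± 0.05 for Med12 to 0.62 ± 0.08 for Tgm2, and no gene of them overlapped between the times. Their choice by the smallest p favours this, and 329 of the 822 genes called higher were free of overlap. The 15 lower genes ran from −0.31 ± 0.05 for Anp32a to −0.87 ± 0.13 for Fosb. They included Synpr, the synaptoporin of mossy fibre vesicles (72.8, 78.2 and 85.8 CPM at 6 h, against 94.4, 101.5 and 117 CPM at 1 h), Plat, the tissue plasminogen activator, Pfkfb3, an activator of glycolysis, P4ha1, a collagen prolyl hydroxylase, Ackr3, a scavenger receptor for the chemokine CXCL12, Dynll1, a dynein light chain, and Nifk and Pno1, which act in ribosome assembly in the nucleolus.

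The neuronal lists held few calls each, and counts this small give no direction for a list. Over all tested genes 4.68% were called lower and 4.47% higher. Among neuropeptides and interneuron markers 2 of 25 were called, both lower: Npy fell by 0.46 ± 0.11 (adjusted p = 0.0249) and Sstr2, a somatostatin receptor, by 0.63 ± 0.16 (adjusted p = 0.0304). Npy lay at 20.6, 24.0 and 27.8 CPM at 6 h and 29.3, 30.4 and 45.7 CPM at 1 h. The top value was that of stigmasterol 1 h replicate 8, the library with the highest sum of striatal markers. Without that library Npy fell by 0.35 (adjusted p = 0.0213) and Sstr2 by 0.44 (adjusted p = 0.0247). Their calls were lost in 4 and 7 of 12 fits that each left out 1 library, with adjusted p of 0.0690 for Npy without vehicle 6 h replicate 14 and 0.0734 for Sstr2 without vehicle 1 h replicate 5. Of 26 glutamate receptor genes 2 were called lower (Grm3 and Grik2), of 21 genes of GABA signalling 1 (Gabra4); these 3 calls were lost in 8, 10 and 7 of 12 such fits, with adjusted p of up to 0.0969 (Grm3, without vehicle 1 h replicate 4), 0.105 (Grik2, without vehicle 1 h replicate 9) and 0.0800 (Gabra4, without vehicle 6 h replicate 14). Of 9 CA2 and CA3 markers 3 were called lower (Cpne4, Nptx1 and Pcp4), and of 11 dentate markers 2 were called higher (Glis3 and Pdzd2) and 2 lower (Trpc6 and Stxbp6). None of 8 CA1 markers was called.

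Sterol genes went in mixed directions, and they are given because a sterol was injected in one arm. Over all tested genes 4.47% were called higher and 4.68% lower. Of 26 genes of cholesterol synthesis and uptake 2 were called higher, Lss and Tm7sf2, and 4 lower, Acat2, Dhcr7, Fdps and Insig2, all with adjusted p between 0.0364 and 0.0494; no member was called lower without stigmasterol 1 h replicate 1, and none was called without vehicle 1 h replicates 4 and 9 together. Of 17 LXR targets 1 was called higher, Srebf1 (0.50 ± 0.12, adjusted p = 0.0277; 0.0696 without vehicle 6 h replicate 14), and Abca1, a cholesterol exporter and LXR target, had a log2 fold change of 0.11 ± 0.06. Of 37 glucocorticoid-responsive genes tested 2 were called lower, Errfi1 and Nr3c2, the mineralocorticoid receptor (−0.28 ± 0.06, adjusted p = 0.0167), while Fkbp5, Sgk1 and the glucocorticoid receptor Nr3c1 did not pass (log2 fold changes −0.15, −0.25 and 0.04). Fkbp5 passed without stigmasterol 6 h replicate 23, its highest library at 6 h (log2 fold change −0.35, adjusted p = 0.0204).

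Of 30 nuclear-encoded genes of the respiratory chain 8 were called lower at 6 h and none higher, with a median log2 fold change of −0.14. The shares over all tested genes were 4.68% lower and 4.47% higher. Uqcrfs1, the Rieske protein of complex III, fell by 0.23 ± 0.05 (adjusted p = 0.0185) and Ndufa4, a subunit of complex IV, by 0.27 ± 0.07 (adjusted p = 0.0296), each without overlap. After removal of the GC and length trends of each library 1 of the 30 was called, and Ndufa4 then had a log2 fold change of −0.06 and an adjusted p of 0.674. With each library's GC slope as a covariate instead, an alternative chosen after the data were seen, 15 of the 30 were called lower, with a median of −0.14. Without vehicle 1 h replicate 4, or without replicates 4 and 9 together, none was called. Of 44 cytosolic ribosomal protein genes 1 was called lower, Rpl23, and of 7 mitochondrially encoded genes none, with a median log2 fold change of −0.10 that was 0.12 after the removal. Of the remaining lists, SR proteins, hnRNPs and CLK kinases had 2 of 29 called higher (Srrm2 and Son), FoxO and PPAR targets 1 of 26 higher and 1 lower (Insr and Sesn1), and clock regulators 1 of 12 lower (Crem). In fits that each left out 1 of the 12 libraries, the call of Insr was lost in 10, that of Sesn1 in 8, those of Son and Rpl23 in 7 each and that of Crem in 1, with adjusted p of 0.0827 for Insr without vehicle 1 h replicate 4, and of 0.0842, 0.0928, 0.0880 and 0.0515 for the others without vehicle 6 h replicate 14.

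**Figure D4:**
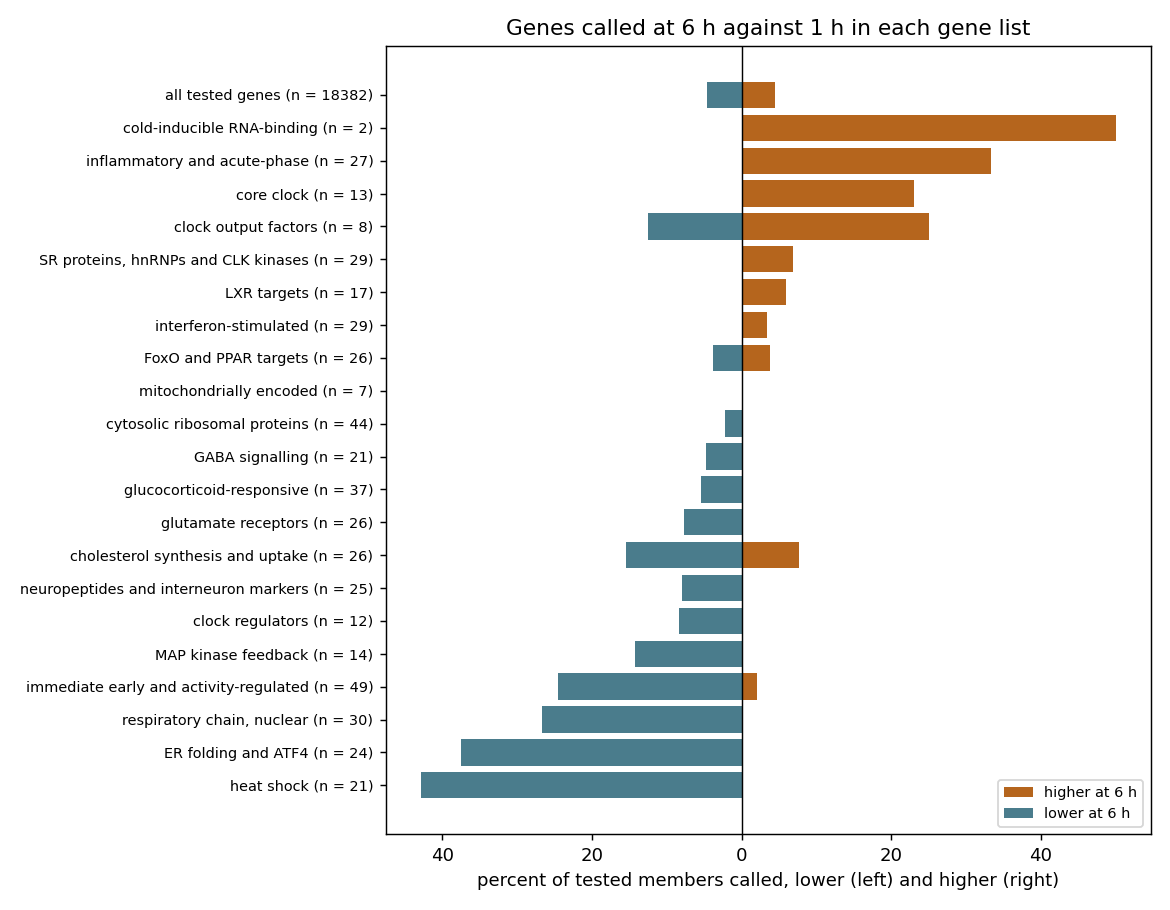
Percent of the tested members of each of 21 gene lists called higher (right, brown) or lower (left, blue) at 6 h, below the same for all 18382 tested genes (n in brackets is the number of tested members). Inflammatory genes lay furthest to the higher side among lists of more than 2 genes, and heat shock, ER folding and respiratory chain genes to the lower side.

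GC content moved with the direction of the difference. Genes called higher had a median GC content of 53.2% and a median length of 3842 bases, those called lower 46.2% and 2771 bases, and those not called 49.6% and 3097 bases. With genes split into 4 equal bins of GC content, 0.979% were called higher and 7.22% lower in the lowest bin, and 7.29% higher and 1.26% lower in the highest. Of the genes called lower 98.7% were protein coding, against 78.4% of those called higher and 81.8% of those not called. With the trends removed per library 2393 genes were called, 1218 of them among the 1682, and the inflammatory, heat shock and ER folding lists then had 8 higher, 13 lower and 11 lower. The inflammatory list then also had 1 called lower.

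Each injection was also fitted on its own, within a model with 1 coefficient per group. Within stigmasterol animals 1 gene was called (0.00544% of those tested) and within vehicle animals 124 (0.675%), 85 higher and 39 lower; at an unadjusted p below 0.05 there were 1837 (9.99%) and 3901 (21.2%). This does not show that the injections differed: for the difference between the time effects, no gene passed in edgeR, DESeq2 or limma-voom, and 425 (2.31%), 356 and 498 had an unadjusted p below 0.05 in these. Of the 1682 called genes 28 (1.66%) had an unadjusted p below 0.05 for the difference. These genes were chosen in a model without a term for such a difference, which tends to keep that share low. It therefore does not show that the injections agreed. The vehicle count lay between 0 and 4 when any 1 vehicle library was left out and between 32 and 582 when any 1 stigmasterol library was. It was 0 without vehicle 1 h replicate 5, 0 without vehicle 1 h replicates 4 and 9 together, and 0 with choroid plexus content as a covariate, whereas 1708 genes were called when only the 6 vehicle libraries were fitted. The stigmasterol count was 0 without stigmasterol 1 h replicate 1 and 5 without stigmasterol 6 h replicate 23.

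The 3 genes with the smallest p for the difference were Podn, an extracellular matrix protein, Loxl4, a matrix cross-linking enzyme, and Milr1, an immunoglobulin receptor of mast cells. Podn had a log2 fold change of −0.12 within stigmasterol animals and 0.91 within vehicle animals, a difference of −1.03 ± 0.20 (adjusted p = 1.00). Loxl4 and Milr1 averaged under 1 CPM, with differences of −2.08 ± 0.43 and −1.96 ± 0.43 and the same adjusted p. The time effects were correlated across genes between the injections (Pearson r = 0.389 over 18382 genes, which are not independent replicates).

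**Figure D5:**
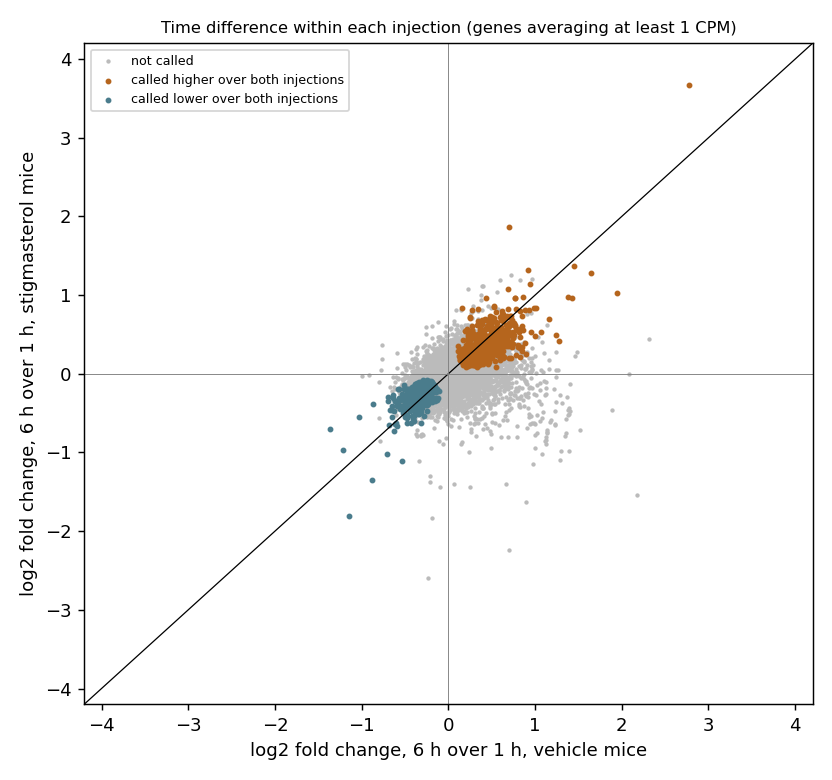
Log2 fold change at 6 h over 1 h within stigmasterol animals (vertical axis) against that within vehicle animals (horizontal axis) for the 15023 genes averaging at least 1 CPM, with genes called over both injections in brown (higher) and blue (lower) and the line of equality. The called genes lay in the 2 quadrants of equal sign, a pattern that their choice by the pooled effect largely fixes.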

How the data were processed

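The submitters' processing notes list STAR 2.4.2a beside cutadapt, HTSeq 0.6.1p1 beside bcl2fastq 2.17.1.14, both DESeq and DESeq2 1.10.1, and the build GRCm38, with no roles. The deposited raw table holds counts, whole reads per gene, made by the authors (21532 genes; the lowest maximum over libraries is 6). The deposited normalized table holds a signal made by the authors, counts divided by 1 size factor per library, and was used in 1 alternative. Of the gene identifiers, 21501 were found in GENCODE M21.

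Tests used edgeR 4.0.16 in R 4.3.3: filterByExpr, TMM, quasi-likelihood fits of all 12 libraries and Benjamini-Hochberg adjustment, with a threshold of 0.05. SE is the absolute log2 fold change over the square root of F. The common biological coefficient of variation was 0.122 and the median SE 0.0811 (genes of at least 1 CPM). The comparisons, the 37 gene lists and the rule for named genes were chosen with earlier results of these data known. The rule took the 15 higher and 15 lower genes with the smallest p (mean of at least 1 CPM, no predicted transcripts), all clock and cold-inducible genes, 4 genes per other pathway list, the 3 genes with the smallest p for the difference and 11 fixed genes. Other named genes, such as Lcn2, Selp, Lrg1, Etnppl, Fabp7, Egr2 and Hspd1, were chosen after their values were seen. Fits were tested on simulated data. Replicate pairs differed by more than sampling noise (chi-square per degree of freedom of at least 8.07). Alternatives used DESeq2 1.42.0 and limma 3.58.1, among others. Motifs were searched in 250 bases before RefSeq starts. Some named genes are not reported here.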

Additional observations from a re-analysis of the deposited data

Results flagged for a closer look

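Of 304 sets of 6 libraries at one time (named genes at 6 h and at 1 h), 34 held a library far from the other 5, by Dixon's test at its 95% critical value, which chance alone passes in about 1 in 20 sets. Values are in CPM, and none of these libraries was left out of the reported values.

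At 6 h, stigmasterol replicate 23 was apart for Lcn2 (24.0, the others between 1.52 and 3.27), Fkbp5 (157, the others between 72.4 and 93.9), Cdkn1a (18.8), Sesn1 (70.0) and Il4ra (16.4). Lcn2 is a gene of the acute phase, and Fkbp5, Cdkn1a and Sesn1 include glucocorticoid and FoxO targets. Stigmasterol replicate 22, the library with the steepest lean towards GC-rich genes, was apart for Cirbp (73.1), Cebpd (12.5) and Apoe (2274, the others between 1391 and 1717). Stigmasterol replicate 13 was apart for Ahsa1 (89.9), Spred2 (95.2) and Acat2 (18.7), and vehicle replicates 12 and 21 for Uqcrh (109) and Selp (1.05).

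At 1 h, stigmasterol replicate 8, the library with the highest sum of striatal markers, was high for Tac1 (8.94), Sstr2 (22.9) and Npy (45.7). It was also high for Apoe (1746), Cdkn1a (22.2), S100a8 (0.380), Xbp1 (83.9) and Manf (43.4). The same library was low for Med12 (69.6), Clock (85.9), Nampt (45.7), Cirbp (44.7), Son (517), Gabra5 (126) and Gabra2 (123). Vehicle replicate 4 was high for Sesn3 (174), Rpl22 (104) and Ndufa4 (213). Stigmasterol replicate 11 was high for Dynll1 (189) and Serpina3f (0.208), and vehicle replicate 5 for Zmat2 (158). The part of tissue content in these values was not tested.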

How the results depend on the processing

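Sequencing depth limits genes of few reads, such as Selp and Il1b, and single libraries limit the counts of calls. No paired analysis was possible because no replicate number is shared between groups. The cause of the changes below was not tested. Over both injections, 1682 genes became 2533 with the DESeq2 Wald test, 2573 with a covariate for each library's GC slope (added after seeing the data), 3158 at an adjusted p of 0.1, 80 without vehicle 1 h replicates 4 and 9 together, and 391 to 3243 with 1 library left out. Other alternatives gave 1267 to 2393, within 1.5 times; upper-quartile scaling moved the share of calls that were higher to 73.9%, against 48.9%. DESeq2 size factors, limma-voom, the robust fit, limma-trend on the normalized values, no filter, a stricter filter and no treatment term gave 1556 to 1722.

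Within stigmasterol animals, 1 became 8 (upper-quartile), 0 (stricter filter; only the groups compared; without stigmasterol 1 h replicate 8 and 6 h replicate 22 together, added after seeing the data), 97 (DESeq2), 13 (GC and length trends removed), 16 (adjusted p of 0.1), 12 (GC slope), and 0 to 5 with 1 library left out. Within vehicle animals, 124 became 187 (upper-quartile), 276 (stricter filter), 1154 (DESeq2), 1708 (only the groups compared), 0 (choroid plexus covariate; without replicates 4 and 9), 786 (trends removed), 963 (adjusted p of 0.1), 1421 (without the pair of stigmasterol libraries), 729 (GC slope), and 0 to 582 with 1 library left out. The difference between injections stayed at 0 in every alternative run.

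Of the named genes, 8 changed sign, none of them past the threshold. Nr1d2 (−0.04) had log2 fold changes of 0.0045 (upper-quartile), 0.047 (trends removed), 0.0025 (without the pair of stigmasterol libraries) and 0.054 (GC slope), and of −0.11 to 0.014 with 1 library left out; Hlf had 0.015 without that pair. With trends removed and with the GC slope, mt-Nd2 had 0.013 and 0.010, mt-Nd1 0.099 and 0.082, mt-Co1 0.071 and 0.059, mt-Cytb 0.12 and 0.061, and Bdnf 0.042 and 0.00072. Without vehicle 1 h replicates 4 and 9, mt-Cytb had 0.0029 and Milr1 −0.12.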
